A study of Homo sapiens with 6 samples.

Results

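The 9 genes described here encode the transcription factors ATF4, CHOP (gene DDIT3), ATF3, ATF5 and the C/EBP proteins beta, gamma and delta (CEBPB, CEBPG, CEBPD), together with the pseudokinase TRIB3 and the small chromatin-associated protein NUPR1. They were chosen by symbol, with the difference between the groups already known from these arrays. The members are all probe sets that the platform annotation pairs with exactly 1 of these symbols, which gave 25 of 49293 probe sets, or 9 of 18132 genes. None of the probe sets paired with several symbols held one of the 9 genes. Because the same contrast was in view when the genes were chosen, their differences are given as a description, without p-values.

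ATF4 is a basic leucine zipper factor whose messenger RNA is translated more efficiently when the initiation factor eIF2 alpha is phosphorylated, the step common to the branches of the integrated stress response. It pairs with C/EBP proteins, among them C/EBP gamma, and induces genes of amino acid supply together with further stress factors such as CHOP, ATF3 and TRIB3. CHOP is itself a C/EBP family member, and TRIB3 binds ATF4 and CHOP and restrains them. Because much of the control of ATF4 is translational, its transcript level does not report its protein level.

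The cells were BCPAP, a line from a human papillary thyroid carcinoma, transduced with lentivirus that carried a short hairpin RNA. The hairpin targeted CSF2, which encodes the cytokine GM-CSF, in 1 group (shCSF2) and no gene in the other (shCtrl). Both groups received puromycin from 48 hours after transduction for 7 days. Each group held 3 arrays, described as biological replicates, and the labels do not say whether they came from separate transductions, so the spread between arrays may be partly technical. The labels give no count of hairpins per gene, and CSF2 itself is not analysed here, as the annotation pairs 0 probe sets with it, so the groups were not checked against the targeted transcript. Values are log2 expression summaries on Affymetrix PrimeView arrays. On these, the level of one probe set cannot be set against that of another as an amount of transcript. Places above or below the array median, and percentiles, therefore describe signal brightness only. Array medians lay between 5.77 and 5.79. Of the 7 measured thyroid markers, the transcription factor genes NKX2-1 (mean log2 value 9.78 in shCtrl cells), PAX8 (8.11), HHEX (7.74) and FOXE1 (6.03) lay above the array median of 5.78. The thyroglobulin gene TG (4.61), the iodide transporter gene SLC5A5 (4.68) and the receptor gene TSHR (3.86) lay below it. NKX2-1 fell in shCSF2 cells (-0.42 ± 0.04, by both of its probe sets), and the other 6 did not pass by their brightest probe sets. Of the 4 probe sets of PAX8, 1 passed as lower. Of the 5 epithelial markers, the keratin genes KRT8 (10.42) and KRT18 (11.74) were bright and CDH1, EPCAM and KRT19 lay below the median, and KRT8 fell (-0.26 ± 0.05, by all 8 probe sets). All 5 measured leukocyte and all 5 fibroblast markers lay below the median by their brightest probe sets, with 0 and 1 past the threshold. The latter was COL1A2 (-0.21 ± 0.05), for which 1 of 6 probe sets passed as lower. For the leukocyte gene ITGAM, picked with its values in view, 1 of 3 probe sets passed in each direction. Of the 4 endothelial markers, CDH5 (6.59), PECAM1 (6.26) and KDR (6.06) lay above the median and VWF (5.65) below it, and none passed. The part of these marker changes in the values below was not tested. The difference between 3' and 5' control probe sets was 0.02 higher in shCSF2 arrays for GAPDH (exact two-sided permutation p = 0.1, the smallest that 3 arrays against 3 allow) and 0.02 higher for ACTB (p = 0.6). The part of RNA quality in the values below was not tested.

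Across the 25 probe sets, the transcripts of ATF4, DDIT3, ATF3, CEBPB, CEBPG and TRIB3 were higher in shCSF2 cells. ATF3 and TRIB3 differed most, by about 1 on the log2 scale. In bulk RNA such as this, a change in the number of cells with a transcript and a change in its level per cell cannot be told apart. ATF5, CEBPD and NUPR1 had differences of at most 0.20. Of the 25 probe sets, 14 passed an adjusted p of 0.05 in the higher direction in limma's fit over all probe sets, where 15.3% did, and 0 in the lower direction, where 13.8% did. The 3 shCSF2 arrays lay wholly above the 3 shCtrl arrays in 16 probe sets (21.3% of all probe sets) and wholly below in 2 (22.5%). Since the genes were chosen on this contrast, nothing is read from these counts. The median difference was 0.30 over the 25 probe sets and -0.02 over all probe sets. No low values were filtered out, and the mean log2 value was 5 or more in 19 of the 25.

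**Figure D1:**
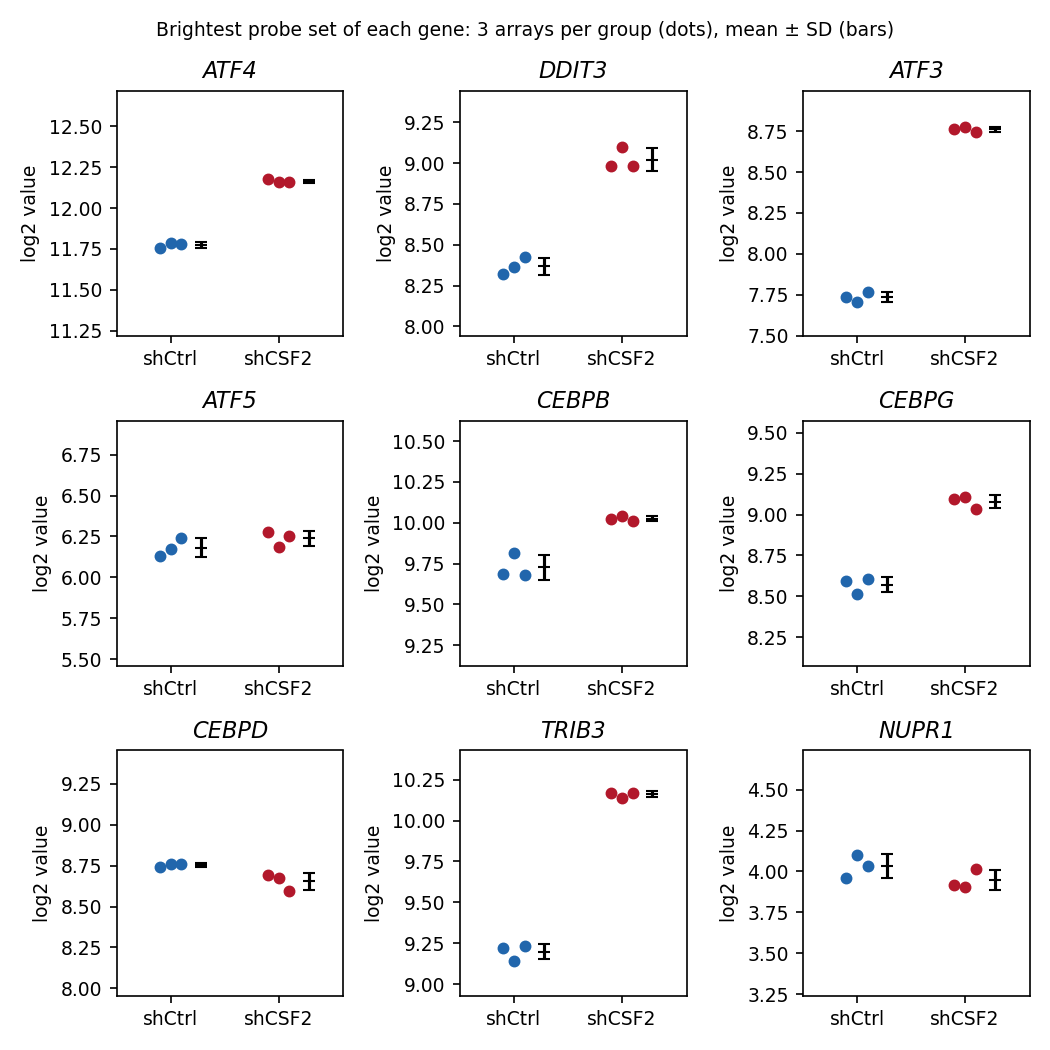
Log2 value of the brightest probe set of each of the 9 genes in every array, with 3 shCtrl arrays (blue) and 3 shCSF2 arrays (red); black marks give the mean ± SD, and every panel spans the same range of 1.5 log2 units. The groups are apart with shCSF2 higher for ATF4, DDIT3, ATF3, CEBPB, CEBPG and TRIB3, apart with shCSF2 lower for CEBPD, and overlapping for ATF5 and NUPR1.

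ATF4, the head of the pathway, had 1 probe set (11757047_x_at), whose mean lay at the 99.3rd percentile of all probe set means. It read 12.18, 12.16 and 12.16 in the 3 shCSF2 arrays and 11.75, 11.79 and 11.78 in the 3 shCtrl arrays. The groups did not overlap, and the SD was 0.01 in shCSF2 and 0.02 in shCtrl arrays. The difference was 0.39 ± 0.04 (SE, n = 3 per group), or 1.31-fold. The x in the probe set's name marks probes that can also bind other transcripts, and no second probe set was paired with ATF4, so this value has no check by an independent probe set. In the 250 bases before the more upstream of the 2 tabulated start sites of ATF4 (chr22:39520309-39520558, plus strand, RefSeq, GRCh38.p14), capitals mark both matches to TGACG, a short core of the site bound by ATF and CREB factors, read on either strand:
ATF4: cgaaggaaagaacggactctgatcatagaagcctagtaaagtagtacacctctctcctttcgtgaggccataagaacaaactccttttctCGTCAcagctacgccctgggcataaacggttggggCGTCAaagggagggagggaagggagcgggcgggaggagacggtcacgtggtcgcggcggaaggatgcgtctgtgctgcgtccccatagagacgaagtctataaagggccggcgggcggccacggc
These letters were present in the start-site windows of 28.4% of all genes, so its presence in ATF4 is common.

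DDIT3 encodes CHOP, a C/EBP protein that does not bind the usual C/EBP sites and acts with partners, with roles in cell death under prolonged stress. Its brighter probe set (11758347_s_at) read 8.98, 9.10 and 8.98 in shCSF2 arrays and 8.32, 8.36 and 8.42 in shCtrl arrays. The other (11758198_s_at) read 8.85, 8.99 and 8.87 against 8.13, 8.21 and 8.28. In both, every shCSF2 array was above every shCtrl array. The differences were 0.65 ± 0.05 and 0.70 ± 0.06, or 1.57-fold and 1.62-fold. Both were read on the same arrays, so the 2 values are not independent. The s in both names marks probes shared by more than 1 transcript. The 250 bases before the more upstream of the 2 starts of DDIT3 (chr12:57520518-57520767, minus strand, RefSeq, GRCh38.p14) are shown with capitals for a match to TGANTCA, the AP-1 site of FOS, JUN and ATF3 dimers, and for both CCAAT boxes, 1 on each strand:
DDIT3: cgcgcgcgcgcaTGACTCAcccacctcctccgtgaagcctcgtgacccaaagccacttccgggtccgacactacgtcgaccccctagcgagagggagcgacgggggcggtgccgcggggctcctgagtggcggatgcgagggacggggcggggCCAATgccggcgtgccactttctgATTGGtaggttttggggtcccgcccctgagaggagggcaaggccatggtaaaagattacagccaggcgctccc
The AP-1 letters stood in the windows of 9.37% of all genes and the CCAAT letters in those of 39.7%. No exact match to the full letters of the endoplasmic reticulum stress element (ERSE) was in this window, and 0.0916% of all genes held one. Only exact matches were sought. Read from either box on its own strand, the printed letters differ from the ERSE letters at 1 base. Whether this window holds a working ERSE was not tested.

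ATF3, which is induced by many stresses and represses or activates genes depending on its dimer partner, had 7 probe sets. The brightest (11719344_a_at) read 8.77, 8.78 and 8.74 in shCSF2 arrays and 7.73, 7.71 and 7.77 in shCtrl arrays. All 3 shCSF2 arrays were about 1 log2 unit above all 3 shCtrl arrays, with a difference of 1.03 ± 0.04, or 2.04-fold. Among the 18132 genes, taken by the brightest probe set, this difference ranked 28th from the highest. The other 3 probe sets with a mean of at least 5 had differences of 0.94 ± 0.05 (11753632_x_at), 0.87 ± 0.04 (11753631_a_at) and 1.01 ± 0.09 (11719343_x_at). The last of these was the noisiest, with 7.51, 7.33 and 7.44 in shCSF2 arrays against 6.60, 6.35 and 6.29 in shCtrl arrays, and its groups were also apart.

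The remaining 3 ATF3 probe sets were dim, and their differences were smaller. The probe set 11719342_a_at read 3.23, 3.25 and 3.35 against 3.10, 2.94 and 2.81, a difference of 0.33 ± 0.08. The probe set 11763463_a_at read 3.77, 3.71 and 3.84 against 3.50, 3.52 and 3.66, a difference of 0.22 ± 0.06. In 11742243_a_at the groups overlapped, with 4.85, 5.04 and 4.93 against 4.90, 4.73 and 4.84 and a difference of 0.12 ± 0.07. The differences thus ran from 0.87 to 1.03 in the 4 bright ATF3 probe sets and from 0.12 to 0.33 in the 3 dim ones. Averaging all 7 gave 0.64.

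The 2 tabulated starts of ATF3 each have a window of 300 bases, and the upstream one held the only match to TGATGNAA, the core of the C/EBP-ATF response element through which ATF4 dimers act. The 250 bases before that start (chr1:212565157-212565406, plus strand, RefSeq, GRCh38.p14) are shown with this match, which begins 191 bases before the start, and a CCAAT box on the opposite strand in capitals:
ATF3: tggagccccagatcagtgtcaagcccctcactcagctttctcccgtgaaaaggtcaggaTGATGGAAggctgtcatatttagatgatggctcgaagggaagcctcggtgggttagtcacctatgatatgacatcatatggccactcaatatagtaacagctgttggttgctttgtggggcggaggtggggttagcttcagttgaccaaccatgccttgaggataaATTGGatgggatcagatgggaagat
Among the 7 genes of the set with a tabulated window, TGATGNAA was present in ATF3 and CEBPG, against 4.46% of all genes. A gene counted if any of its windows matched. The 7 genes have 2 or 3 windows each, while all 27305 genes together have 35116, so the 2 shares are not like for like. Of all windows, 3.62% held a match. The windows are short, and a match is a stretch of letters, not a shown binding site. Neither the full cyclic AMP response element TGACGTCA (2.25% of all genes) nor the C/EBP palindrome TTGCGCAA (0.172%) was found in a window of these 7 genes.

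**Figure D2:**
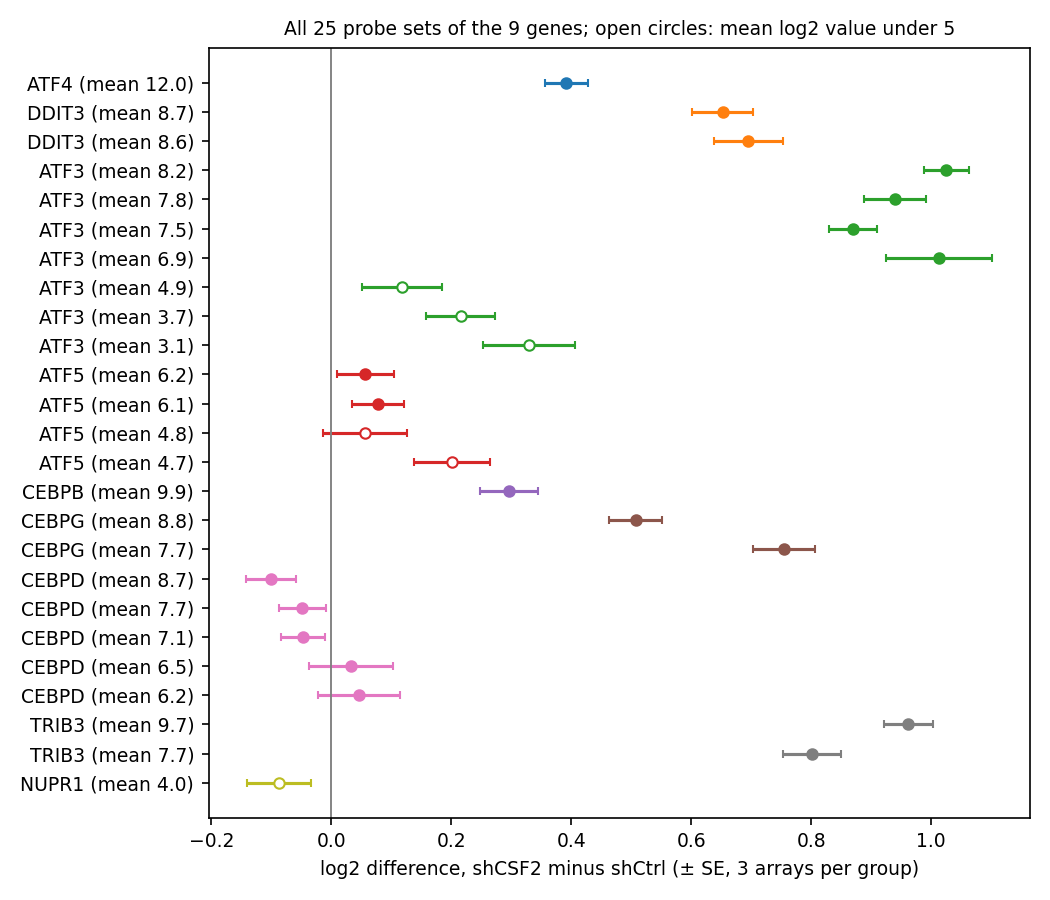
Log2 difference (shCSF2 minus shCtrl, ± SE, 3 arrays per group) of each of the 25 probe sets, labelled with the gene and the mean log2 value over the 6 arrays; open circles have a mean under 5. The 4 bright ATF3 probe sets lie between 0.87 and 1.03 and the 3 dim ones between 0.12 and 0.33, while all 5 CEBPD probe sets lie between -0.10 and 0.05.

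The C/EBP genes differed from one another. CEBPG encodes a short C/EBP without an activation domain of its own, which serves as a dimer partner of ATF4. Its brighter probe set (11717693_at) read 9.09, 9.11 and 9.04 in shCSF2 arrays and 8.59, 8.52 and 8.61 in shCtrl arrays, and the other (11717694_a_at) read 8.02, 8.18 and 8.08 against 7.38, 7.31 and 7.32. Both pairs of groups were apart. The differences were 0.51 ± 0.04 and 0.75 ± 0.05, or 1.42-fold and 1.69-fold, so the size depends on the probe set although the direction does not. The match to TGATGNAA in CEBPG begins 42 bases before the downstream of its 2 tabulated starts, and is shown in capitals within 30 bases (chr19:33374060-33374089, plus strand, RefSeq, GRCh38.p14):
CEBPG: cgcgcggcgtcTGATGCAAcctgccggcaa

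CEBPB, a regulator of inflammatory and acute-phase genes and of differentiation, had 1 probe set (11743077_s_at). It read 10.02, 10.04 and 10.01 in shCSF2 arrays and 9.69, 9.82 and 9.68 in shCtrl arrays. The groups were apart, and shCtrl replicate 2 was the control array nearest to the shCSF2 arrays. The difference was 0.30 ± 0.05, or 1.23-fold, the smallest among the 6 genes that were higher. The s in the probe set's name marks probes shared by more than 1 transcript, and no second probe set was paired with CEBPB.

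CEBPD, an immediate-early C/EBP gene of the acute-phase response, had 5 probe sets, none of which passed in either direction. The brightest (11752869_s_at) read 8.69, 8.67 and 8.59 in shCSF2 arrays and 8.74, 8.76 and 8.76 in shCtrl arrays. The shCSF2 arrays were all lower, by -0.10 ± 0.04 (95% interval -0.20 to -0.0017). The probe set 11743136_x_at was also lower in every shCSF2 array (7.02, 7.04 and 7.06 against 7.09, 7.08 and 7.10). The other 3 overlapped, with differences of -0.05, 0.03 and 0.05. At the gene level CEBPD passed as lower after cyclic loess (-0.12) and after quantile normalisation was applied again (-0.13), but not with all 5 probe sets averaged (-0.02).

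TRIB3, a pseudokinase induced by ATF4 and CHOP that feeds back on both and also binds AKT, had 2 probe sets. The brighter (11719811_a_at) read 10.17, 10.14 and 10.17 in shCSF2 arrays and 9.22, 9.14 and 9.23 in shCtrl arrays. The other (11751172_a_at) read 8.04, 8.14 and 8.00 against 7.30, 7.24 and 7.23. Every shCSF2 array lay above every shCtrl array in both. The differences were 0.96 ± 0.04 and 0.80 ± 0.05, or 1.95-fold and 1.74-fold, and the larger ranked 40th among the 18132 genes. None of the motifs named here matched the 3 tabulated windows of TRIB3.

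ATF5, which supports survival and the mitochondrial stress response and is controlled by translation much as ATF4 is, had 4 probe sets, and none passed. The brightest (11717800_a_at) read 6.28, 6.18 and 6.25 in shCSF2 arrays and 6.13, 6.17 and 6.24 in shCtrl arrays. These overlapped, and the difference was 0.06 ± 0.05 (95% interval -0.06 to 0.17). The dimmest (11754592_x_at) read 4.83, 4.70 and 4.83 against 4.47, 4.63 and 4.66, which did not overlap, with a difference of 0.20 ± 0.06. That probe set missed the threshold in the main fit and passed in 5 of 12 other settings. The other 2 differed by 0.08 ± 0.04 (11717802_s_at, groups apart) and 0.06 ± 0.07 (11717801_a_at, groups overlapping).

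NUPR1, a stress-induced chromatin protein, had 1 probe set (11716937_a_at), whose mean lay at the 22.4th percentile of all probe set means. It read 3.92, 3.91 and 4.02 in shCSF2 arrays and 3.96, 4.10 and 4.04 in shCtrl arrays. The groups overlapped, with a difference of -0.09 ± 0.05 (95% interval -0.21 to 0.04).

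The genes nearest to ATF3 in their 6 array values, each taken relative to its shCtrl mean, were ZNF622, GCLM and RHOB, at root mean square distances of 0.03, 0.03 and 0.03 log2 units. Their differences were 0.99 ± 0.04, 1.06 ± 0.03 and 1.02 ± 0.04. RHOB had a difference of 0.32 with all of its probe sets averaged. In all, 26 of 18131 other genes lay within 0.1 of ATF3. ATF4 was less distinctive, since 1159 genes lay within 0.1 of it, and the nearest were TWNK (0.39), BUD31 (0.38) and HPRT1 (0.38, log2 differences). With 2 groups of 3 arrays, such likeness says mainly that the group difference was of similar size.

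The pathway around these factors was read from 6 gene lists at the gene level, where each gene is represented by its brightest probe set. Over all 18132 genes, 16.7% passed as higher and 16.0% as lower, with a median difference of -0.03. Of the 9 genes themselves, 6 passed as higher and 0 as lower. The lists were drawn up with earlier results of these arrays known, so their counts are a description.

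Among 22 measured amino acid genes induced by ATF4, 14 rose and 1 fell, with a median difference of 0.26. The cystine transporter gene SLC7A11 was higher by 1.44 ± 0.04 and SLC3A2, which encodes the heavy chain it pairs with, by 1.01 ± 0.05. The large neutral amino acid transporter gene SLC7A5 rose by 0.85 ± 0.04 (0.51 with all probe sets averaged). The asparagine synthetase gene ASNS, a classical ATF4 target, rose by 0.75 ± 0.04. The gene that fell, chosen after its value was seen, was MTHFD2 (-0.21 ± 0.04), a mitochondrial folate enzyme. By its brightest probe set SLC38A2 missed the threshold (-0.08 ± 0.03), but 2 of its 3 probe sets passed as lower. SLC1A4 also missed it (0.14 ± 0.06), but 3 of its 6 probe sets passed as higher. Both were picked with their values in view.

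Among 30 measured stress effectors downstream of ATF4 and CHOP, 19 rose and 2 fell, with a median of 0.28. The 19 include EIF4EBP1 (0.11 ± 0.03), picked with its value in view, for which 0 of 3 probe sets passed in the fit over all probe sets. INHBE, an activin-family subunit gene, was higher by 1.78 ± 0.13. Its mean was 4.48 in shCtrl cells, below the array median of 5.78, and 6.26 in shCSF2 cells. The mTORC1 inhibitor gene DDIT4 was higher by 1.12 ± 0.04, the sestrin gene SESN2 by 1.10 ± 0.05 and the glutathione-degrading enzyme gene CHAC1 by 0.80 ± 0.07. Of the genes in this list that act in cell death, picked with their values in view, the death receptor gene TNFRSF10B rose by 0.32 ± 0.03 and PMAIP1 by 0.37 ± 0.04. BBC3 (0.32 ± 0.11) and BCL2L11 (-0.07 ± 0.06) did not pass. KLHL24 (-0.36 ± 0.04) and LAMP3 (-0.25 ± 0.07) fell, and were likewise picked with their values in view. The count of genes that fell was 1 in each of 4 fits that left out shCSF2 replicate 1, 2 or 3 or shCtrl replicate 1.

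**Figure D3:**
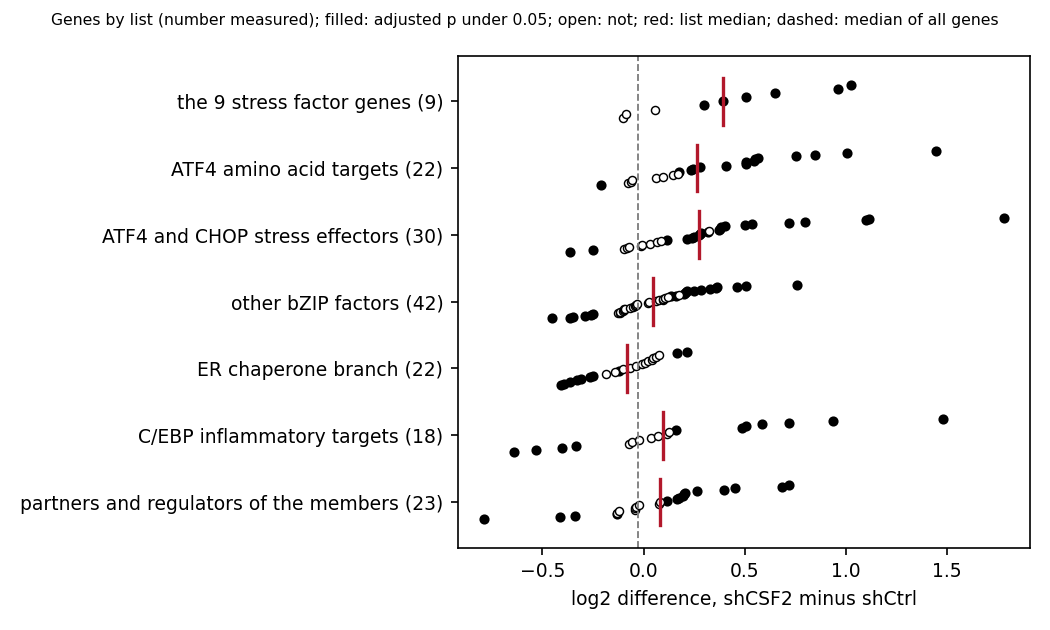
Log2 difference (shCSF2 minus shCtrl) of each measured gene in the 9-gene set and the 6 pathway lists, filled where the gene passed an adjusted p of 0.05; the red line is the list's median and the dashed line the median of all genes (-0.03). The medians of both ATF4 target lists are 0.26 and 0.28, that of the endoplasmic reticulum chaperone branch -0.08.

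The chaperones and folding enzymes of the endoplasmic reticulum depend mainly on XBP1 and ATF6 rather than on ATF4. The list of 22 genes read here also holds genes of protein translocation, transport and degradation. Of the 22, 2 rose and 8 fell, with a median of -0.08. The disulfide isomerase genes PDIA4 (-0.41 ± 0.03) and PDIA6 (-0.39 ± 0.04), WFS1 (-0.36 ± 0.06) and the coat protein gene SEC24D (-0.33 ± 0.06, or -0.19 with all probe sets averaged) fell most. The BiP gene HSPA5, picked with its value in view, missed the threshold (-0.04 ± 0.04), but 3 of its 6 probe sets passed as lower. The count that rose was 1 without shCtrl replicate 1 or shCtrl replicate 2. The difference between these genes and the ATF4 lists was not tested.

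Of 42 other measured basic leucine zipper genes, 14 rose (33.3%) and 6 fell, with a median of 0.05. The small MAF gene MAFF rose by 0.76 ± 0.04 (0.53 with its probe sets averaged), the NRF2 gene NFE2L2 by 0.51 ± 0.03 and XBP1 by 0.46 ± 0.04. Chosen after their values were seen, ATF6 rose by 0.33 ± 0.05, by all 3 probe sets, and ATF6B (-0.10 ± 0.04) did not pass. XBP1 was read by 1 probe set. The values are of transcripts, and the activity of the XBP1 and ATF6 proteins was not measured. The AP-1 gene FOSL2 fell by 0.45 on the log2 scale, with 3 of 5 probe sets past the threshold, and by 0.20 with all averaged. The remaining C/EBP genes, CEBPA (0.11 ± 0.08) and CEBPE (-0.05 ± 0.06), chosen after their values were seen, were dim and did not pass.

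Of 18 inflammatory genes linked to C/EBP factors, 7 rose and 4 fell, with a median of 0.10. The chemokine gene CXCL5 (1.48 ± 0.03), the pentraxin gene PTX3 (0.94 ± 0.05) and the cytokine gene IL1B (0.72 ± 0.03) rose. The serum amyloid gene SAA1 fell (-0.64 ± 0.08) at a low level, from a mean of 4.18 in shCtrl to 3.54 in shCSF2 cells on the log2 scale. IL6, chosen after its value was seen, rose by its brightest probe set (0.50 ± 0.04), but its other probe set passed in the opposite direction, so its direction is uncertain.

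Of 23 partners and regulators of the 9 proteins, 11 rose and 4 fell, with a median of 0.08. TRIB2, a relative of TRIB3 that degrades C/EBP alpha, fell by 0.79 on the log2 scale (SE 0.06), opposite to TRIB3. DENR, which helps ribosomes reinitiate, rose by 0.68 ± 0.03. Both genes of the subunits that direct dephosphorylation of eIF2 alpha rose, the stress-induced PPP1R15A by 0.72 ± 0.04 and the constitutive PPP1R15B by 0.45 ± 0.04, or 0.64 with all 4 probe sets averaged. PPP1R15A also belongs to the list of stress effectors. The eIF2 alpha kinase genes, chosen after their values were seen, differed by 0.21 ± 0.05 for EIF2AK4, -0.13 ± 0.04 for EIF2AK2, -0.12 ± 0.05 for EIF2AK3 and -0.04 ± 0.04 for EIF2AK1, by their brightest probe sets. EIF2AK4 and EIF2AK2 passed at the gene level. For EIF2AK4, 1 of 2 probe sets passed in the fit over all probe sets and the value was 0.06 with both averaged, and for EIF2AK2 0 of 2 passed there. For EIF2AK1, 1 of 8 probe sets passed in each direction. The eIF2 alpha gene EIF2S1, also chosen after its value was seen, counted as higher by its brightest probe set (0.12 ± 0.03). In the fit over all probe sets, 0 of its 5 passed as higher and 3 as lower, so its direction is uncertain. The count that rose in this list was between 6 and 8 when any 1 array was left out, and was 6 without shCSF2 replicate 1 or shCtrl replicate 1 and 7 without shCSF2 replicate 2, shCSF2 replicate 3 or shCtrl replicate 2.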

How the data were processed

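The authors deposited a log2 value for each probe set on each array. RMA, oligo and limma are named in the submitters' processing notes, which give no version and no role. Summaries of this kind compress differences at low signal, and probe-level files were not used here. Of 49395 probe sets, 102 controls were left out. Of the other 49293, 44988 were paired with 1 symbol. All 6 columns were mapped to samples by accession.

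The groups were compared in limma 3.58.1 (R 4.3.3) by lmFit and eBayes, two-sided, with Benjamini-Hochberg adjustment over all probe sets (for the 25 probe sets) or all 18132 genes (for lists, 1 probe set per gene, the one with the highest mean), at a threshold of 0.05. No filter, trend or block was used. Differences are shCSF2 minus shCtrl, with moderated standard errors and 95% intervals. In simulated data for this comparison, 200 of 49293 probe sets were changed. The fit recovered 68% of those changed by 0.3, and 100% at 0.5, 1 and -1, and 8.91% of calls were false. In the arrays far more probe sets passed (15.3% as higher and 13.8% as lower), so these shares do not carry over to them. Deviations from the group mean, compared between the arrays of the same replicate number, correlated at 0.03, 0.05 and 0.03. Such values cannot settle whether the replicate numbers pair the samples, so a fit with a replicate block is also given.

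The members and the lists were chosen with earlier results of these data known. From each list the 4 passing genes with the largest change were named, and for ATF3 and ATF4 the 3 genes nearest in pattern. Others are said to be chosen after their values were seen. List genes that no single-gene probe set covers are not analysed here. Motifs were sought on both strands of RefSeq start-site windows, 250 bases before to 50 after the start (GRCh38.p14), tabulated for 7 of the 9 genes. Overlapping matches were counted, and a gene was counted if any of its windows held a match. The alternatives were other scalings, filters on dim rows, array weights, a robust fit with a variance trend, the replicate block, other choices of probe set per gene, each array left out and, chosen after seeing the data, probe sets with the x suffix left out. Precision is limited by the number of arrays.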

Additional observations from a re-analysis of the deposited data

How the results depend on the processing

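The 6 genes that were higher kept their direction and passed in all 16 other settings of the gene-level fit, with ranges of 0.38 to 0.42 for ATF4, 0.61 to 0.70 for DDIT3, 0.64 to 1.05 for ATF3, 0.27 to 0.34 for CEBPB, 0.47 to 0.75 for CEBPG and 0.88 to 0.99 for TRIB3. The count of the 9 genes that passed as higher stayed at 6. The count that passed as lower, 0 in the main fit, was 1 (CEBPD) after quantile normalisation again, after cyclic loess, with rows of a mean of at least 5, with rows at least at the median, and with a variance trend and robust estimation, and 0 without any 1 array. Over probe sets, the count lower was 1 with rows at least at the median and with a variance trend, and the count higher ran from 12 to 15. With the 41383 probe sets without the x suffix, 11 of 19 passed as higher (15.4% of all). ATF4 then has no value.

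With the replicate block, 13 of the 25 probe sets and 6 of the 9 genes passed as higher and 0 as lower, and 2798 genes passed as higher over the array against 3037. The block moved no count printed above by over 1.5 times. Among the lists, the amino acid genes that fell numbered 2 with rows at least at the median, with a variance trend, with all probe sets averaged and with the most variable probe set. The stress effectors that fell numbered 1 with rows at least at the median and 1 to 2 without 1 array. The genes of the endoplasmic reticulum list that rose numbered 1 with the most variable probe set and 1 to 2 without 1 array. The inflammatory genes that fell numbered 2 with rows of a mean of at least 5 and 1 with rows at least at the median, where fewer genes were tested. The partners that rose numbered 6 to 8 without 1 array, and those that fell numbered 8 with all probe sets averaged and 7 with the most variable probe set. The cause of the other shifts was not tested. Dim probe sets, such as that of NUPR1, limit what can be seen.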
